A study of Drosophila melanogaster with 96 samples.

Results

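Cuticle protein genes encode the structural proteins that bind chitin and build the outer layer of the fly. They were taken here as the genes whose symbol begins with Cpr and a digit, Ccp84, Lcp, Acp65, Twdl or Edg. The symbols matched 124 of the 17698 deposited genes, and 34 of them had at least 1 TPM (transcripts scaled to the same total in every library) in at least 24 of the 96 libraries. The remaining 90 were below that level: 13 of them were listed at 0 in every library, 73 never reached 1 TPM, a count that includes those 13, and 17 reached it in 1 or more libraries. Among the 90 were Lcp1Psi, Lcp65APsi and TwdlU, which are annotated as pseudogenes.

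The study asked how knockdown of Achilles (Achl) changes daily mRNA rhythms in heads of Drosophila melanogaster and whether females and males differ in this. Its 4 groups, each with 24 libraries, were female Achl_RNAi, female Control, male Achl_RNAi and male Control. Flies of all groups were 3 to 5 days old, were kept at 25 degrees in 12 h light and 12 h dark, and had been in constant darkness for 24 h before sampling began. Heads were sampled at 2 h intervals from circadian time (CT) 24 to CT70, where CT counts hours from subjective dawn. Each library was made from a pool of 7 to 8 heads and each group had 1 library at each time. The labels used here name neither the driver of the RNAi nor the control construct, so the cells in which Achl was knocked down are not stated. Whole heads hold epidermis, eye, brain, fat body and muscle, and in such bulk samples fewer cells of a type and less RNA per cell cannot be told apart.

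Insect cuticle is secreted by the epidermis as layers of chitin fibres embedded in protein. Most of the proteins belong to the CPR family, which binds chitin through the Rebers and Riddiford domain, and a smaller family, Tweedle (Twdl), shapes the body in larvae. Larval, pupal and adult cuticles use different members, and adults go on laying down inner layers in a daily pattern set by a clock in the epidermis. The lens of each eye facet is also a cuticle, built of Cpr72Ec, Cpr66D, drosocrystallin (Crys) and retinin.

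TPM hold no counts, so the depth of the libraries is unknown. Achl was at 10.1, 15.9 and 21.01 TPM (lowest, median and highest of 24 libraries) in female Achl_RNAi heads, against 29.4, 69.5 and 104.9 TPM in female controls. It was at 7.66, 22.2 and 33.8 TPM in male Achl_RNAi heads, against 16.6, 74.8 and 143.5 TPM in male controls. The log2 change of Achl was -2.01 in female and -1.63 in male heads. Female libraries differed in mt:lrRNA, a mitochondrial ribosomal RNA: 15 of 24 Achl_RNAi and 14 of 24 Control libraries were under 50000 TPM, 12 of each being the whole second day (CT48 to CT70), and 0 male libraries were. The 2 female sets are called low-mt and high-mt, and values within them are given where a call, a direction or a size depends on them. The high-mt libraries were all of the first day. Comparisons of either set with males kept all 24 libraries of each male group, from both days.

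The 34 genes were spread over a wide range of levels, and 2 of them held most of the RNA. Cpr65Au averaged 995 TPM over all 96 libraries, Cpr72Ec, the corneal lens protein, 479 TPM and Cpr67B 150 TPM. Another 10 genes averaged 10 to 100 TPM, in falling order Cpr49Ae at 80.7, Cpr49Ag at 68.6, Cpr47Ee at 27.3, Cpr73D at 20.2, Cpr62Bb at 17.7, Lcp65Ag2 at 16.8, Cpr57A at 14.2, Cpr100A at 11.8, Cpr76Bc at 10.7 and TwdlG at 10.01 TPM. The 14 genes from 1 to 10 TPM were Cpr60D at 9.96, Cpr97Eb at 8.61, Cpr11B at 6.07, TwdlT at 5.10, Cpr51A at 5.06, Cpr49Af at 3.61, Cpr64Ac at 3.09, Cpr47Ea at 2.84, Edg91 at 2.55, Cpr47Ef at 2.14, Lcp65Ac at 1.73, Cpr62Ba at 1.27, Cpr62Bc at 1.18 and Cpr50Cb at 1.09 TPM. The 7 under 1 TPM were Cpr76Bd at 0.987, TwdlE at 0.952, Edg78E at 0.950, Cpr66D at 0.873, Ccp84Ag at 0.790, Cpr67Fb at 0.782 and Lcp65Ae at 0.779 TPM. In 17 of the 34 genes the level was at least 1 TPM in all 96 libraries. Just inside the limit of 24 libraries stood Cpr67Fb with 28 and Lcp65Ae with 31, and just outside it Lcp65Ag3 with 22.

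Summed over all 34 genes, the median library held 1833 TPM of cuticle protein RNA in female Achl_RNAi, 2049 in female controls, 1698 in male Achl_RNAi and 2345 in male controls. Cpr65Au and Cpr72Ec made up 78.3% of this sum in female Achl_RNAi, 75.8% in female controls, 72.6% in male Achl_RNAi and 74.3% in male controls. Of the 124 cuticle genes 27.4% passed the limit of 1 TPM in 24 libraries, against 59.7% of all deposited genes. The CPR symbols kept 25 of 70 genes, the Lcp symbols 3 of 17, Tweedle 3 of 26, Ccp84 1 of 7, the ecdysone-dependent genes (Edg) 2 of 3, and Acp65Aa, an adult cuticle protein, did not pass. The genes at Lcp1 to Lcp4 (chromosome 2R from 8430115 to 8438495, dm6) passed in 0 of 5 cases, and the TwdlM to TwdlD array (3R from 26619118 to 26641054) in 0 of 12. Those at Lcp1 to Lcp4 build larval cuticle, apart from the pseudogene Lcp1Psi.

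Cuticle genes lie in arrays, and most arrays contributed only part of their genes. The largest, from Lcp65Ag3 to Cpr65Az (3L from 6130386 to 6161589), holds 19 of the 124 genes, and 4 passed: Cpr65Au, Lcp65Ag2, Lcp65Ae and Lcp65Ac. Cpr65Au and Lcp65Ag2 are neighbours on the same strand with 880 bases between them. Lcp65Ag1, Lcp65Ag2 and Lcp65Ag3 are close copies of one another, so reads assigned to Lcp65Ag2 may belong in part to the others. The arrays at Cpr49A kept 3 of 8 genes, at Cpr47E 3 of 7, at Cpr76B 2 of 4 and at Cpr62B 3 of 3.

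**Figure D1:**
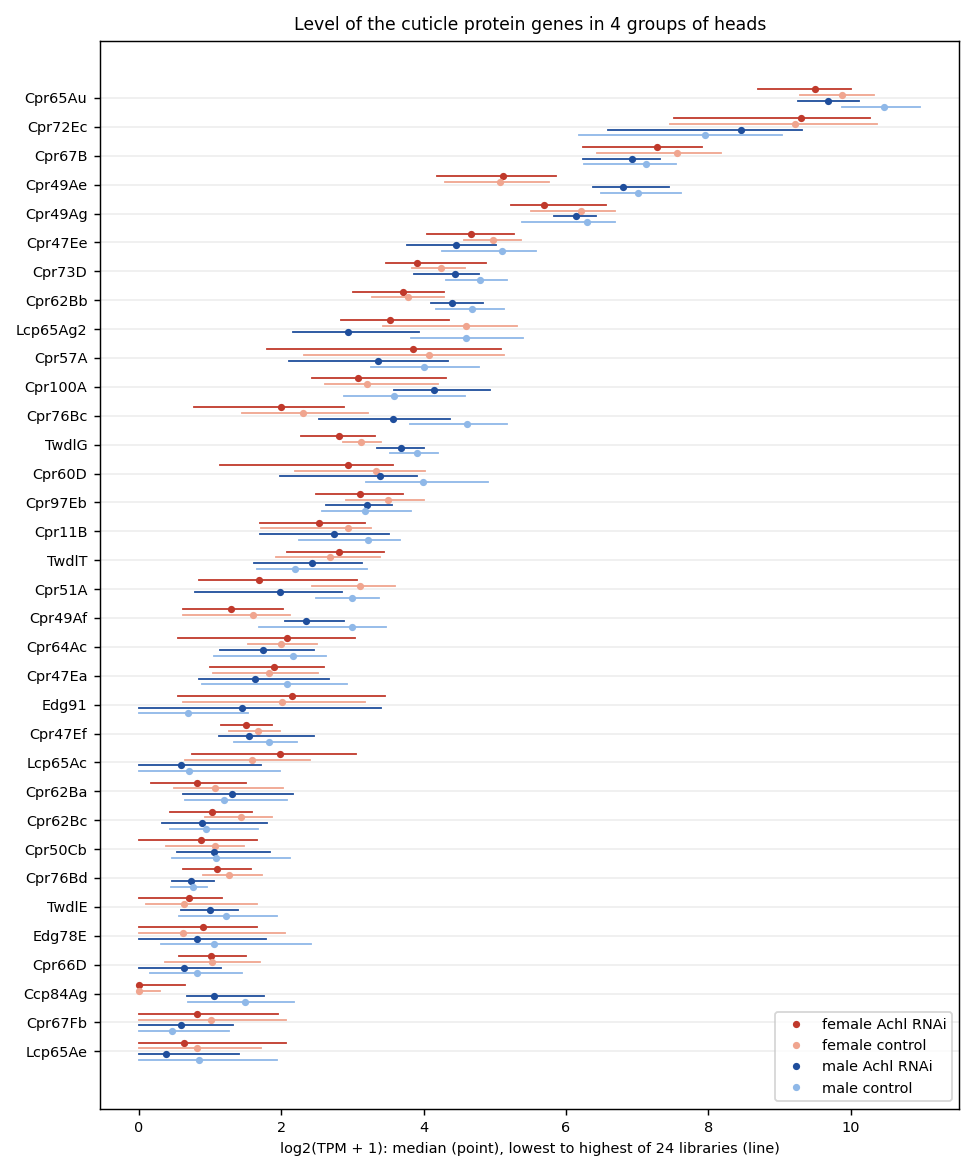
Level of each of the 34 cuticle protein genes in the 4 groups, as log2(TPM + 1); points are medians and lines run over the 24 libraries of a group. Genes are ordered by mean level, Cpr65Au at the top; the female and male lines stand apart for Cpr49Ae, TwdlG and Ccp84Ag in both genotypes.

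Under Achl knockdown in females, cuticle protein genes were lower far more often than higher, as genes were in general. In limma fits across all genes, on log2(TPM + 1), 17 of the 34 were lower in female Achl_RNAi than in female Control heads and 1 was higher, at an adjusted p under 0.05. Over all 10568 genes tested, 55.7% were lower and 4.7% higher. The members' share was therefore close to that of all genes. Their median log2 change was -0.21, and that of all tested genes -0.18. With each library centred on its own median, 8 were lower and 1 higher, against 11% lower and 11.2% higher among all tested genes. Changes on this scale are understated for genes of low level.

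Cpr51A, a CPR family gene, had the largest change. It was at 0.80, 2.21 and 7.39 TPM (lowest, median, highest) in female Achl_RNAi heads, against 4.38, 7.57 and 11.1 TPM in female controls. The ranges overlapped, but 22 of 24 same-time pairs were lower in Achl_RNAi. The log2 change was -1.35 ± 0.11 (SE, limma adjusted p = 7.6e-18) and -1.18 after centring. Within the high-mt libraries it was -0.88, and within the low-mt ones -1.65. Cpr51A lies on chromosome 2R from 14512559 to 14515211 (dm6), 87794 bases from Achl. Within 100000 bases of Achl, 16 genes were tested, of which 13 were lower and 0 higher in female Achl_RNAi. Over all tested genes 55.7% were lower and 4.7% higher. The median log2 change of the 16 was -0.27, against -0.18 for all tested genes. The lowest of the 16 after Cpr51A was CG30197 at -0.33. Whether the position near Achl plays a part was not tested.

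Of the cuticle gene array at 65A, Lcp65Ag2 and Cpr65Au were lower and Lcp65Ac was higher. Lcp65Ag2 was at 6.18, 10.5 and 19.4 TPM in female Achl_RNAi heads, against 9.78, 23.2 and 38.9 TPM in female controls. The ranges overlapped, and 22 of 24 pairs were lower in Achl_RNAi, with a log2 change of -0.95 ± 0.13 (SE, limma adjusted p = 9.87e-10). Cpr65Au was at 413.5, 720.9 and 1028 TPM, against 623.9, 941.2 and 1282 TPM in controls. Its ranges overlapped widely, 20 of 24 pairs were lower in Achl_RNAi, and the log2 change was -0.34 ± 0.07 (SE, limma adjusted p = 6.7e-05). Lcp65Ac was at 0.67, 2.95 and 7.27 TPM in Achl_RNAi, against 0.57, 2.01 and 4.28 TPM in controls. It was the single gene that was higher, by 0.40 ± 0.16 (limma adjusted p = 0.0313), but by 0.61 within the low-mt libraries and with a log2 change of -0.04, not passing, within the high-mt ones. The fourth gene there, Lcp65Ae, did not pass, with a log2 change of -0.14.

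Among the other named genes the changes were smaller. TwdlG, a Tweedle gene, was at 3.85, 5.98 and 8.94 TPM in female Achl_RNAi, against 6.26, 7.66 and 9.55 TPM in female controls, and fell by 0.32 ± 0.06 on the log2 scale (limma adjusted p = 6.63e-06). Cpr62Bc was at 0.35, 1.04 and 1.99 TPM, against 0.90, 1.71 and 2.65 TPM in controls, and fell by 0.42 ± 0.09 (limma adjusted p = 3.57e-05). Cpr49Ag was at 36.5, 50.8 and 93.2 TPM, against 44.4, 73.02 and 102.5 TPM in controls, and fell by 0.39 ± 0.08 (limma adjusted p = 3.79e-05). In all of these the Achl_RNAi median was the lower one while the ranges overlapped. The other genes that were lower were Cpr97Eb, Cpr76Bd, Cpr60D, Cpr47Ee, Cpr62Ba, Cpr73D, Cpr11B, Cpr49Af, Cpr67B, Cpr76Bc and Cpr62Bb, with log2 changes from -0.46 in Cpr60D to -0.20 in Cpr62Bb. Within the high-mt libraries Cpr47Ee, Cpr49Af and Cpr62Ba did not pass, nor did Cpr11B, Cpr62Bb and Cpr76Bc within the low-mt ones. After centring, Cpr65Au had -0.17, TwdlG -0.16 and Lcp65Ag2 -0.79 and kept their calls, while Cpr76Bd, Cpr47Ee, Cpr62Ba, Cpr73D, Cpr11B, Cpr49Af, Cpr67B, Cpr76Bc and Cpr62Bb lost theirs. The 24 values of Achl_RNAi and the 24 of Control overlapped in all 34 genes, and over all tested genes the ranges were apart in 0.416%.

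In males, 19 genes were lower and 2 higher in Achl_RNAi than in Control heads, and over all tested genes 53.5% were lower and 4.61% higher. The median log2 change was -0.21, against -0.16 for all tested genes. After centring, 9 were lower and 6 higher, against 17.7% lower and 14.7% higher among all tested genes, and 11 of these 15 were among the 21 called without centring. Ranges were apart in 0 of the 34 genes and in 1.26% of all tested genes.

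Lcp65Ag2 had the largest change in males. It was at 3.48, 6.65 and 14.3 TPM in male Achl_RNAi, against 13.1, 23.3 and 41.2 TPM in male controls. The ranges overlapped only between 13.1 and 14.3 TPM and all 24 same-time pairs were lower in Achl_RNAi, with a log2 change of -1.66 ± 0.13 (SE, limma adjusted p = 3.99e-20). Its neighbour Cpr65Au, the most abundant cuticle gene, was at 613.3, 822.5 and 1106 TPM, against 935.6, 1409 and 2017 TPM in controls. It too was lower in 24 of 24 pairs, at -0.78 ± 0.07 (SE, limma adjusted p = 1.6e-15). In the same array Lcp65Ae was lower too, with a log2 change of -0.45, and Lcp65Ac did not pass, with a log2 change of -0.06.

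Cpr51A was at 0.73, 2.94 and 6.21 TPM in male Achl_RNAi, against 4.58, 6.94 and 9.38 TPM in male controls. It was lower in 24 of 24 pairs, with a log2 change of -1.06 ± 0.11 (SE, limma adjusted p = 4.68e-13). Of the 16 tested genes around Achl, 11 were lower and 0 higher in male Achl_RNAi, and CG30197 was at -0.68. Over all tested genes 53.5% were lower and 4.61% higher. The median log2 change of the 16 was -0.17, against -0.16 for all tested genes. Cpr76Bc was at 4.77, 10.8 and 19.6 TPM in male Achl_RNAi, against 12.95, 23.4 and 34.96 TPM in male controls. All 24 pairs were lower, and the log2 change was -0.99 ± 0.13 (SE, limma adjusted p = 7.32e-10).

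Cpr60D and Cpr47Ee followed. Cpr60D was at 2.94, 9.49 and 13.9 TPM in male Achl_RNAi, against 8.13, 14.96 and 29.02 TPM in male controls, and fell by 0.82 ± 0.12 on the log2 scale (limma adjusted p = 1.3e-08). Cpr47Ee was at 12.6, 20.9 and 31.5 TPM, against 18.1, 33.2 and 46.7 TPM in controls, and fell by 0.57 ± 0.09 (limma adjusted p = 5.3e-08). Both were lower in 23 of 24 pairs. The rest of the genes lower in males were Cpr73D, Ccp84Ag, Cpr49Af, Cpr11B, TwdlG, TwdlE, Cpr57A, Cpr62Bb, Cpr47Ea, Cpr64Ac, Cpr66D and Cpr47Ef. Cpr51A, Lcp65Ag2, Cpr65Au, TwdlG, Cpr60D, Cpr47Ee, Cpr73D, Cpr11B, Cpr49Af, Cpr76Bc and Cpr62Bb were lower in Achl_RNAi in both sexes. Cpr72Ec, Cpr49Ae, TwdlT, Cpr50Cb, Cpr67Fb and Edg78E, another ecdysone-dependent gene, passed in neither sex. After centring, the male log2 changes were -1.49 in Lcp65Ag2, -0.90 in Cpr51A, -0.83 in Cpr76Bc and -0.62 in Cpr65Au.

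The 2 genes higher in male Achl_RNAi were Cpr100A and Edg91. Cpr100A was at 11.02, 16.7 and 29.5 TPM in male Achl_RNAi, against 6.38, 10.96 and 22.8 TPM in male controls. It was lower in only 3 of 24 pairs and rose by 0.49 ± 0.11 on the log2 scale (limma adjusted p = 0.000218). Edg91, an ecdysone-dependent gene of pupal cuticle, was at 0, 1.73 and 9.60 TPM, against 0, 0.61 and 1.90 TPM in controls. Most of its control values were under 1 TPM, and it rose by 0.66 ± 0.19 (limma adjusted p = 0.00283).

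**Figure D2:**
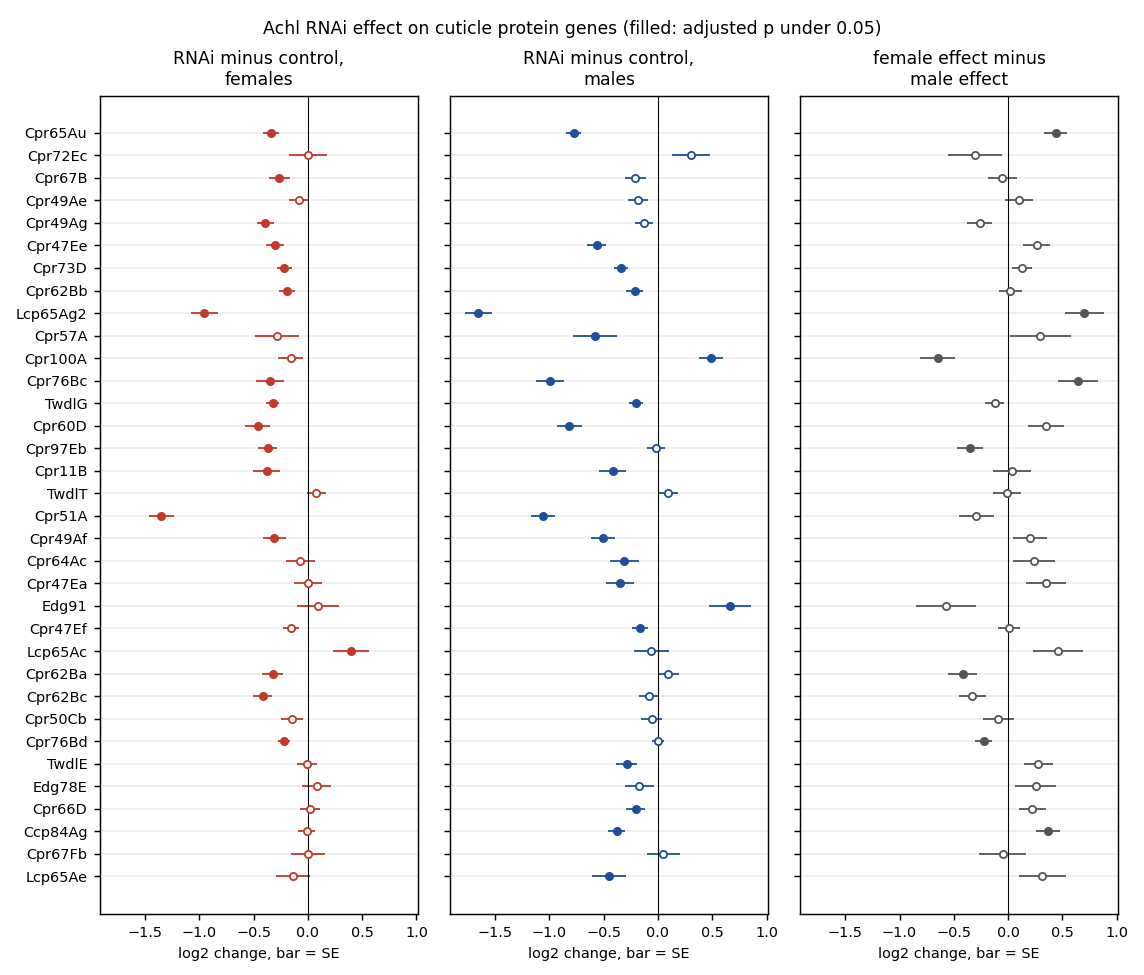
Log2 change of each gene with Achl_RNAi in females (left) and males (middle), and the female change minus the male one (right); bars are standard errors and filled points have an adjusted p under 0.05. Most points in the left and middle panels lie left of 0. Cpr51A and Lcp65Ag2 lie farthest there, at -1.35 and -0.95 in females and -1.06 and -1.66 in males. In the right panel 20 points lie right of 0 and 14 left.

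The knockdown effect differed between the sexes in 8 of the 34 genes. The difference, female effect minus male effect, was positive in 4 genes, where all tested genes had 5.75%, and negative in 4, where all tested genes had 8.37%. It was positive for Cpr65Au (0.44 ± 0.10, limma adjusted p = 0.00131), Lcp65Ag2 (0.70 ± 0.18, limma adjusted p = 0.00312), Cpr76Bc (0.64 ± 0.19, limma adjusted p = 0.0101) and Ccp84Ag (0.37 ± 0.11, limma adjusted p = 0.0125). In each of these the male log2 change was the more negative, at -0.38 in Ccp84Ag, against -0.01 in females. Ccp84Ag was almost absent from female heads and could hardly fall there, so its difference rests on the male change. It was negative for Cpr100A (-0.65 ± 0.16, limma adjusted p = 0.00221), which was higher in male Achl_RNAi and at -0.16 in females without passing. It was also negative for Cpr62Ba (-0.42), Cpr97Eb (-0.35) and Cpr76Bd (-0.22), which were lower in female Achl_RNAi and had male log2 changes of 0.09, -0.02 and 0.00. Each of the 8 calls was lost in at least 1 alternative analysis, and with the first day only 4 remained.

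Photoreceptor transcripts were lower with the knockdown as well, as more than 50% of all tested genes were. Over all tested genes 55.7% were lower and 4.7% higher in female Achl_RNAi, and 53.5% and 4.61% in male Achl_RNAi. The marker counts below stand beside these shares. The summed level of 10 photoreceptor markers ran from 22900 to 43980 TPM in female Achl_RNAi, against 38470 to 70410 TPM in female controls, and from 24430 to 35630 TPM in male Achl_RNAi, against 36250 to 55910 TPM in male controls. Of those 10 markers 8 were lower in females and 7 in males, 0 were higher, and none had a median of 0. Of 8 fat body markers 6 were tested, and 2 were lower in female and 5 in male Achl_RNAi. Their sum ran from 10420 to 37140 TPM in female Achl_RNAi, against 17520 to 27240 TPM in female controls, and from 1204 to 2474 TPM in male Achl_RNAi, against 2834 to 3902 TPM in male controls, with Npc2d at a median of 0 in every group. All 5 glial markers were lower in both sexes, with sums from 1187 to 1582 TPM in female Achl_RNAi, against 1477 to 1736 TPM in female controls, and from 1997 to 2416 TPM in male Achl_RNAi, against 2259 to 2768 TPM in male controls. Of 6 neuronal markers 4 were lower in female and 1 in male Achl_RNAi, and of 7 muscle markers 5 in female and 3 in male Achl_RNAi, with 0 higher in either list. Of 6 hemocyte markers 3 were higher and 2 lower in female Achl_RNAi, and 0 higher and 3 lower in male Achl_RNAi.

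Markers of the trachea, a tissue lined with cuticle, moved in both directions. Of 5 markers, 2 were lower in female Achl_RNAi. Over all tested genes the shares lower and higher were 55.7% and 4.7% in females and 53.5% and 4.61% in males. In male Achl_RNAi Gasp, serp and verm, all chitin-associated proteins, were higher, by 0.26, 0.21 and 0.37 on the log2 scale (limma adjusted p = 0.0017, 0.0389 and 7.25e-06), and btl was lower, at -0.19. Gasp is counted again below among other structural chitin-binding genes, and serp and verm among genes for chitin synthesis and organisation. The part of all these markers in the cuticle gene results was not tested.

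Females and males differed in cuticle genes in both directions. In control heads 12 of the 34 genes were lower and 9 higher in females, against 40.5% lower and 27.7% higher among all tested genes. The median log2 difference, female minus male, was -0.12, and -0.05 for all tested genes. In Achl_RNAi heads 13 were lower and 8 higher in females, against 41.3% lower and 32.7% higher among all tested genes, with medians of -0.05 and -0.04. Female and male ranges were apart in 4 genes in controls and in 4 in Achl_RNAi, against 11.3% and 11.8% of all tested genes. With the high-mt female libraries 16 were lower and 2 higher in females in Achl_RNAi, against 49.2% and 17% of all tested genes, and 14 were lower and 6 higher in controls, against 49.2% and 14.1%. With the low-mt ones 13 were lower and 13 higher in Achl_RNAi, against 37.7% and 42.2%. In controls 11 were then lower and 10 higher, against 36.3% and 40%. Males of both days stayed in these fits, so day and mt:lrRNA level cannot be told apart in them.

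The genes with ranges apart were all lower in females. Cpr49Ae was at 17.1, 33.6 and 57.0 TPM in female Achl_RNAi, against 82.1, 110.3 and 172.6 TPM in male Achl_RNAi. In controls it was at 18.8, 32.7 and 53.2 TPM in females, against 88.9, 127.9 and 195.9 TPM in males. The highest female library was below the lowest male one in both genotypes, with log2 differences of -1.86 ± 0.09 in Achl_RNAi and -1.96 ± 0.09 in controls (SE, limma adjusted p = 1.44e-32 and 1.11e-33). Its neighbour Cpr49Af, 823 bases away on the same strand, was at 0.54, 1.45 and 3.05 TPM in female Achl_RNAi, against 3.13, 4.10 and 6.36 TPM in male Achl_RNAi, without overlap. In controls it was at 0.53, 2.05 and 3.34 TPM in females, against 2.23, 6.94 and 10.1 TPM in males, with some overlap, and the log2 difference was -1.35 ± 0.11 (SE, limma adjusted p = 6.99e-20). Cpr49Ag, the next gene with 747 bases between, was lower in females in Achl_RNAi, with a log2 difference of -0.39 (-0.71 with the high-mt and -0.19 with the low-mt libraries), and had one of -0.13 in controls that did not pass.

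Cpr76Bc was at 1.73, 3.95 and 8.33 TPM in female controls, against 12.95, 23.4 and 34.96 TPM in male controls. These ranges were apart and the log2 difference was the largest among the cuticle genes, -2.25 ± 0.13 (SE, limma adjusted p = 3.32e-28). In Achl_RNAi it was at 0.71, 2.99 and 6.34 TPM in females, against 4.77, 10.8 and 19.6 TPM in males, with some overlap and a difference of -1.61. Cpr76Bd, 5470 bases away on the same strand, went the other way. It was at 0.87, 1.40 and 2.31 TPM in female controls, against 0.36, 0.69 and 0.94 TPM in male controls. It was higher in females in 24 of 24 pairs, with a log2 difference of 0.55 ± 0.06 (SE, limma adjusted p = 5.37e-15). No male control library reached the 1 TPM of the level filter, so these pairs and this p-value are not independent of the filter.

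Ccp84Ag, of the clustered cuticle proteins at 84A, was near 0 in females. Its highest value was 0.56 TPM in female Achl_RNAi and 0.23 TPM in female controls, with a median listed at 0 in both. Males had 0.59, 1.07 and 2.36 TPM in Achl_RNAi and 0.61, 1.81 and 3.54 TPM in controls, so every male library was above every female one. The fitted log2 difference was -1.02 ± 0.08 in Achl_RNAi and -1.39 ± 0.08 in controls (SE, limma adjusted p = 1.02e-21 and 1.72e-29). No female library reached the 1 TPM of the level filter, so Ccp84Ag passed it through male libraries alone. Its place among the genes with ranges apart, and these p-values, are therefore not independent of the filter. TwdlG was at 3.85, 5.98 and 8.94 TPM in female Achl_RNAi, against 9.16, 11.9 and 15 TPM in male Achl_RNAi, again with ranges apart. In controls it was at 6.26, 7.66 and 9.55 TPM in females, against 10.5, 13.95 and 17.5 TPM in males, and the differences were -0.84 ± 0.06 and -0.72 ± 0.06 in Achl_RNAi and controls. Cpr62Bb was lower in females in 24 of 24 control pairs, with medians of 12.7 TPM in females and 24.6 TPM in males and a log2 difference of -0.79 ± 0.08 (SE, limma adjusted p = 1.39e-16).

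Genes higher in females included an eye lens gene and a pupal gene. Cpr72Ec was at 174.6, 596.0 and 1316 TPM in female controls, against 71.6, 246.6 and 523.6 TPM in male controls, higher in 23 of 24 pairs. The log2 difference was 1.13 ± 0.18 (SE, limma adjusted p = 2.3e-08), and was 0.59 with high-mt and 1.51 with low-mt female libraries. In Achl_RNAi it was at 181.7, 630.7 and 1236 TPM in females, against 95.5, 351.1 and 633.6 TPM in males. The difference there was 0.83 ± 0.18 (SE, limma adjusted p = 2.11e-05), but 0.10 and past no threshold with the high-mt libraries. Those female libraries were all of the first day, while the males were of both days. Cpr67B was likewise higher in females in controls (0.45 ± 0.10) and Achl_RNAi (0.40 ± 0.10), and with the high-mt libraries these were 0.09 and -0.07 and did not pass.

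Edg91 was at 0.53, 3.02 and 8.07 TPM in female controls, against 0, 0.61 and 1.90 TPM in male controls. It was higher in females in 23 of 24 pairs, by 1.25 ± 0.19 on the log2 scale (SE, limma adjusted p = 1.85e-08), and in Achl_RNAi by 0.67 ± 0.19. Lcp65Ac was at 0.67, 2.95 and 7.27 TPM in female Achl_RNAi, against 0, 0.51 and 2.27 TPM in male Achl_RNAi, a log2 difference of 1.22 ± 0.16 (SE, limma adjusted p = 2.13e-10). In controls that difference was 0.77 ± 0.16. Cpr62Bc was higher in female than male controls, with a log2 difference of 0.47 ± 0.09, and its Achl_RNAi difference did not pass. Lcp65Ag2, with 0.58 ± 0.13, and the lens gene Cpr66D, with 0.41 ± 0.09, were higher in females in Achl_RNAi and did not pass in controls. With the high-mt libraries the Achl_RNAi differences of Edg91, Lcp65Ag2 and Cpr66D were 0.35, 0.22 and 0.29 and did not pass, and that of Lcp65Ac was 0.70. In Achl_RNAi Cpr100A was lower in females, at -1.001 ± 0.11 (SE, limma adjusted p = 4.1e-13), with medians of 7.42 TPM in females and 16.7 TPM in males. The remaining genes that were lower in female than male controls were Cpr73D, Cpr65Au, TwdlE, Cpr60D, Cpr100A and Cpr11B, and TwdlT, Cpr97Eb and Cpr67Fb were higher. With the high-mt female libraries the log2 difference in controls was 0.03 in Cpr100A, 0.03 in Cpr67Fb and 0.09 in Cpr97Eb, and none passed. Within the low-mt ones Cpr11B had -0.13 and did not pass. On the first day alone Cpr67Fb had -0.07 and on the second alone Cpr11B had 0.05, so both turned direction.

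Marker sums also differed between the sexes. Over 8 fat body markers, which include the yolk protein gene Yp1, the median sum was 19510 TPM in female and 1924 TPM in male Achl_RNAi, and 22200 TPM in female and 3434 TPM in male controls, with ranges given above. Yp1 itself was higher in females by 13.64 on the log2 scale in Achl_RNAi and by 13.9 in controls. Without Yp1 the median sum was 3354 TPM in female and 1924 TPM in male Achl_RNAi, and 3721 TPM in female and 3434 TPM in male controls. Lsp2 was lower in female than male controls, at -3.50, apolpp and AkhR were higher, by 0.48 and 0.56, and Pepck and tobi did not pass. In Achl_RNAi tobi, apolpp and AkhR were higher in females, by 1.61, 0.74 and 0.42, and Lsp2 and Pepck did not pass. Over 5 tracheal markers the sum ran from 34.5 to 80.9 TPM in female and from 98.7 to 162.0 TPM in male Achl_RNAi, and from 45.9 to 88.6 TPM in female and from 80.2 to 126.4 TPM in male controls. All 5 tracheal, all 5 glial and all 6 neuronal markers were lower in females in both genotypes. Over all tested genes 41.3% were lower and 32.7% higher in females in Achl_RNAi, and 40.5% and 27.7% in controls. The neuronal sum ran from 751.4 to 1706 TPM in female and from 1732 to 2426 TPM in male Achl_RNAi, and from 1121 to 1741 TPM in female and from 1825 to 2337 TPM in male controls. Photoreceptor, muscle and hemocyte sums had medians of 58280, 2099 and 178.9 TPM in female controls, against 48260, 1778 and 157.8 TPM in male ones. In Achl_RNAi they were 31310, 1629 and 178.2 TPM in females, against 30930, 1708 and 145.1 TPM in males. Of the muscle and hemocyte markers, Mhc, up, Hml, NimC1 and srp were higher in female controls, and Act88F, TpnC41C and He lower. The part of all these lists in the sex differences was not tested.

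**Figure D3:**
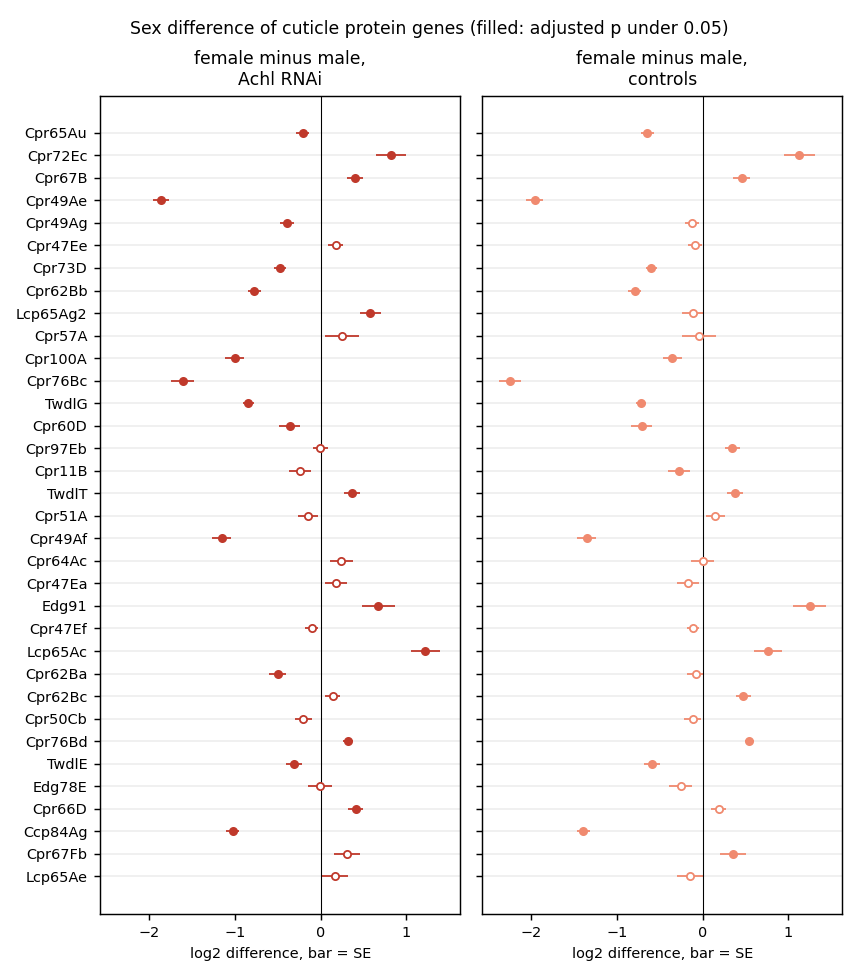
Log2 difference, female minus male, of each gene in Achl_RNAi (left) and Control (right) heads; bars are standard errors and filled points have an adjusted p under 0.05. Cpr49Ae and Cpr76Bc stand farthest to the left in both panels, and Edg91, Cpr72Ec and Lcp65Ac to the right.

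Daily rhythms were called in few cuticle genes. A rhythm of 24 h period passed in 1 of the 34 genes in female Achl_RNAi, against 1.4% of all tested genes, and in 3 in female controls, against 1.6%. It passed in 0 genes in male Achl_RNAi, where all tested genes had 1.02%, and in 0 in male controls, where they had 1.26%. At an unadjusted p under 0.05 in limma, 3 of the 34 genes passed in female Achl_RNAi, against 10.8% of all tested genes, and 10 in female controls, against 9.22%. In male Achl_RNAi 6 passed, against 15.1% of all tested genes, and in male controls 7, against 5.64%.

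The lens gene Cpr72Ec had the largest rhythm called. In female controls it had a second-day low of 439.2 TPM at CT62 and a high of 1316 TPM at CT50, and a first-day low of 174.6 TPM at CT38 and a high of 848.3 TPM at CT46. The fitted peak was 2.90 times the trough and fell at CT0.91 (limma adjusted p = 0.0159). The fitted peaks of the other groups were at CT2.91 in female Achl_RNAi, CT23.7 in male Achl_RNAi and CT23.8 in male controls, with ratios of 1.62, 2.14 and 2.37 and adjusted p of 0.673, 0.247 and 0.151. With a second-day term in the fit, the adjusted p was 0.0239 in male Achl_RNAi, 0.00568 in male controls and 0.299 in female Achl_RNAi. In female Achl_RNAi the second day alone gave a peak at CT23.7, a ratio of 2.09 and an adjusted p of 0.00159, and the first day alone a peak at CT6.17 and an adjusted p of 0.345. After centring, with no day term, the adjusted p was 0.0408 in male controls, 0.0952 in male Achl_RNAi and 0.650 in female Achl_RNAi. On the first day alone both male groups passed (0.0108 in Achl_RNAi and 0.00743 in controls), and on the second alone neither did (0.409 and 0.510). The call in female controls was lost within the low-mt libraries (limma adjusted p = 0.129). The 4 fitted peaks lay between CT23.7 and CT2.91, near subjective dawn, and the cause of the shifts in the call was not tested.

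TwdlT was called in both female groups, with a ratio of 1.79 and a peak at CT23.1 in Achl_RNAi (limma adjusted p = 0.00949) and a ratio of 1.69 and a peak at CT21.3 in controls (limma adjusted p = 0.0300). Both calls were lost after centring (limma adjusted p = 0.0646 in Achl_RNAi and 0.0507 in controls), and within the low-mt (0.0963 and 0.540) and the high-mt libraries (0.210 and 0.281), which leave fewer libraries in the fit. Its level was 3.23, 5.995 and 9.82 TPM in female Achl_RNAi and 2.78, 5.41 and 9.45 TPM in female controls. In males its ratios were 1.26 in Achl_RNAi and 1.63 in controls, and neither passed (limma adjusted p = 0.455 and 0.0734). With a second-day term in the fit the male controls passed (limma adjusted p = 0.0437) and male Achl_RNAi did not (0.365). Cpr62Ba was called in female controls, with a ratio of 1.83 and a peak at CT3.98 (limma adjusted p = 0.00975), and not in female Achl_RNAi, with a ratio of 1.20. The call in controls held within the low-mt libraries (limma adjusted p = 0.0371) and not within the high-mt ones (0.324) or on either day alone (0.387 on the first and 0.0923 on the second). Its level there was low, 0.12 to 1.83 TPM in female Achl_RNAi and 0.41 to 3.06 TPM in female controls.

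A change of rhythm was called in no cuticle gene. Female Achl_RNAi and Control rhythms differed in 0 of the 34 genes and 0.0189% of all tested genes, and male ones in 0 genes and 0% of all tested genes. The rhythms of females and males differed in 0 genes in controls, against 0.00946% of all tested genes, and in 0 in Achl_RNAi, against 0.00946%. At an unadjusted p under 0.05 in limma, 3 of the 34 genes passed for the change in females, against 7.44% of all tested genes, and 0 for that in males, against 1.89%. Between the sexes 1 passed in controls, against 2.7% of all tested genes, and 3 in Achl_RNAi, against 4.83%. For Cpr62Ba and Cpr72Ec, called in female controls and not in female Achl_RNAi, the test of the change itself gave adjusted p of 0.681 and 0.839, so a change between genotypes was not shown.

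**Figure D4:**
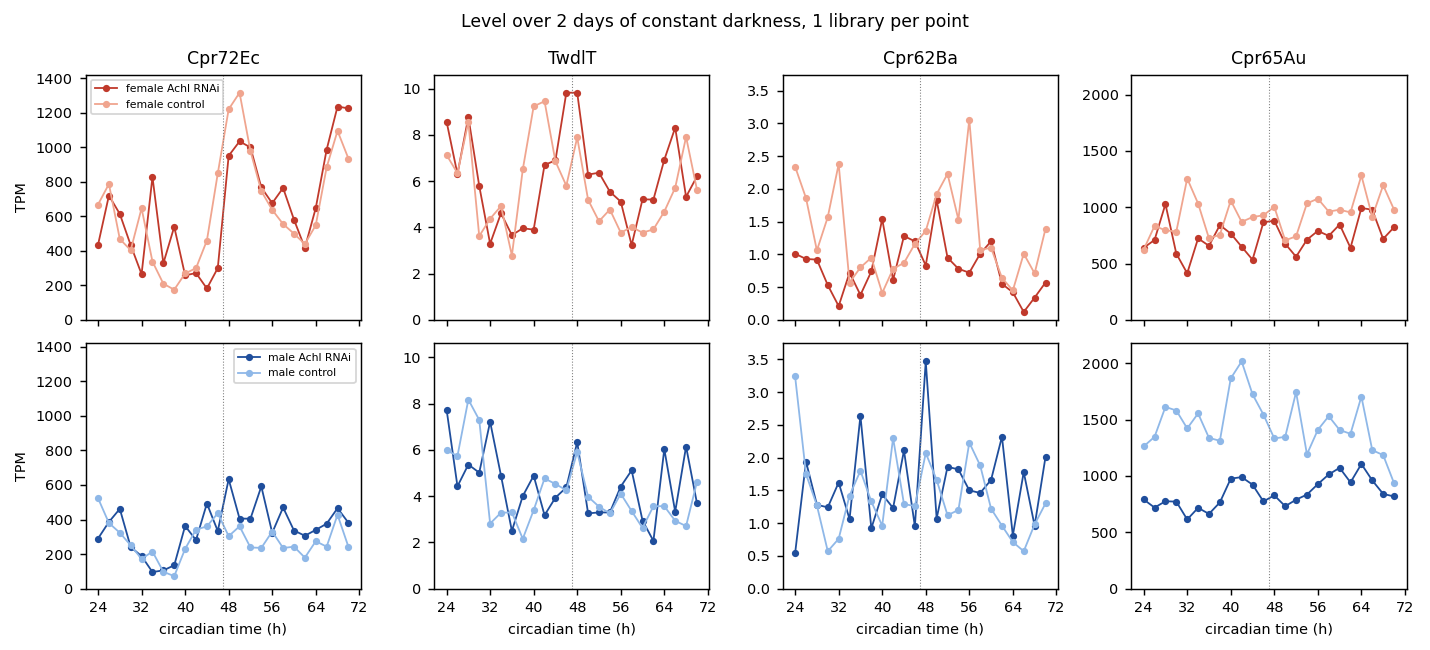
TPM of Cpr72Ec, TwdlT, Cpr62Ba and Cpr65Au at each CT, in females (top) and males (bottom), with Achl_RNAi in the darker colour and controls in the lighter one; each point is 1 library and the dotted line parts the 2 days. Cpr72Ec in female controls was highest at CT50, at 1316 TPM, and lowest at CT38, at 174.6 TPM, while Cpr65Au in males was lower in Achl_RNAi at all 24 times.

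The level of cuticle genes also differed between the 2 days of sampling. In female Achl_RNAi 10 genes were higher and 2 lower on the second day (CT48 to CT70) than on the first (CT24 to CT46), and all tested genes had 50.1% higher and 8.41% lower. In female controls 11 were higher and 4 lower, and all tested genes had 47.3% and 12.4%. In male Achl_RNAi 3 were higher and 2 lower, against 12.9% and 0.53% of all tested genes. In male controls 0 were higher and 0 lower, against 0.00946% and 0.0946% of all tested genes, with 4 of the 34, and 6.39% of all tested genes, at an unadjusted p under 0.05 in limma. After centring, 4 were higher and 6 lower in female Achl_RNAi, against 22.1% and 29.2% of all tested genes. In female controls 5 were then higher and 7 lower, against 24.7% and 26.5%, and in male Achl_RNAi 1 and 2, against 3.39% and 2.81%. Every second-day female library was a low-mt one, so day and mt:lrRNA level cannot be told apart there, nor can day, age and time in darkness in any group.

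Cpr72Ec had the largest day difference in both Achl_RNAi groups. In female Achl_RNAi it was at 417.0, 858.7 and 1236 TPM on the second day, against 181.7, 380.2 and 827.9 TPM on the first, a log2 difference of 1.07 ± 0.19 (SE, limma adjusted p = 2.81e-06). In female controls it was at 439.2, 814.6 and 1316 TPM on the second day, against 174.6, 431.5 and 848.3 TPM on the first, a difference of 0.90 ± 0.19. The days overlapped, with the second one higher in median. In male Achl_RNAi it was at 305.9, 392.9 and 633.6 TPM on the second day, against 95.5, 285.4 and 492.7 TPM on the first, a difference of 0.72 ± 0.19 (SE, limma adjusted p = 0.00782). Male controls had medians of 242.6 TPM on the second day and 286.9 TPM on the first, with a fitted log2 difference of 0.12 that did not pass.

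Other genes moved in either direction. Cpr57A was higher on the second day by 0.96 ± 0.25 in female Achl_RNAi and 0.92 ± 0.25 in female controls, with medians of 17.5 TPM on the second and 7.28 TPM on the first day in Achl_RNAi. Cpr67B was higher by 0.64 ± 0.10 in female Achl_RNAi and 0.53 ± 0.10 in female controls. Cpr64Ac was higher by 0.74 ± 0.17 in female Achl_RNAi, and there TwdlG and Cpr49Ag were higher by 0.34 and 0.33. In female controls Cpr97Eb, Cpr67Fb and Cpr11B were higher by 0.40, 0.66 and 0.48, and Cpr62Bb and TwdlE were lower at -0.38 and -0.36. In male Achl_RNAi Cpr76Bc and Cpr73D were higher by 0.50 and 0.25.

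Cpr100A was lower on the second day in 3 groups, at -0.37 ± 0.12 in female Achl_RNAi, -0.67 ± 0.12 in female controls and -0.55 ± 0.12 in male Achl_RNAi. It was at 11.02, 13.04 and 18.4 TPM on the second day in male Achl_RNAi, against 14.1, 20.4 and 29.5 TPM on the first. Cpr49Ae was lower at -0.54 ± 0.09 in female Achl_RNAi and -0.55 ± 0.09 in female controls, and had -0.39 in male controls without passing (limma adjusted p = 0.0719). Cpr47Ef was lower in male Achl_RNAi, at -0.43 ± 0.09 (SE, limma adjusted p = 0.0012).

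**Figure D5:**
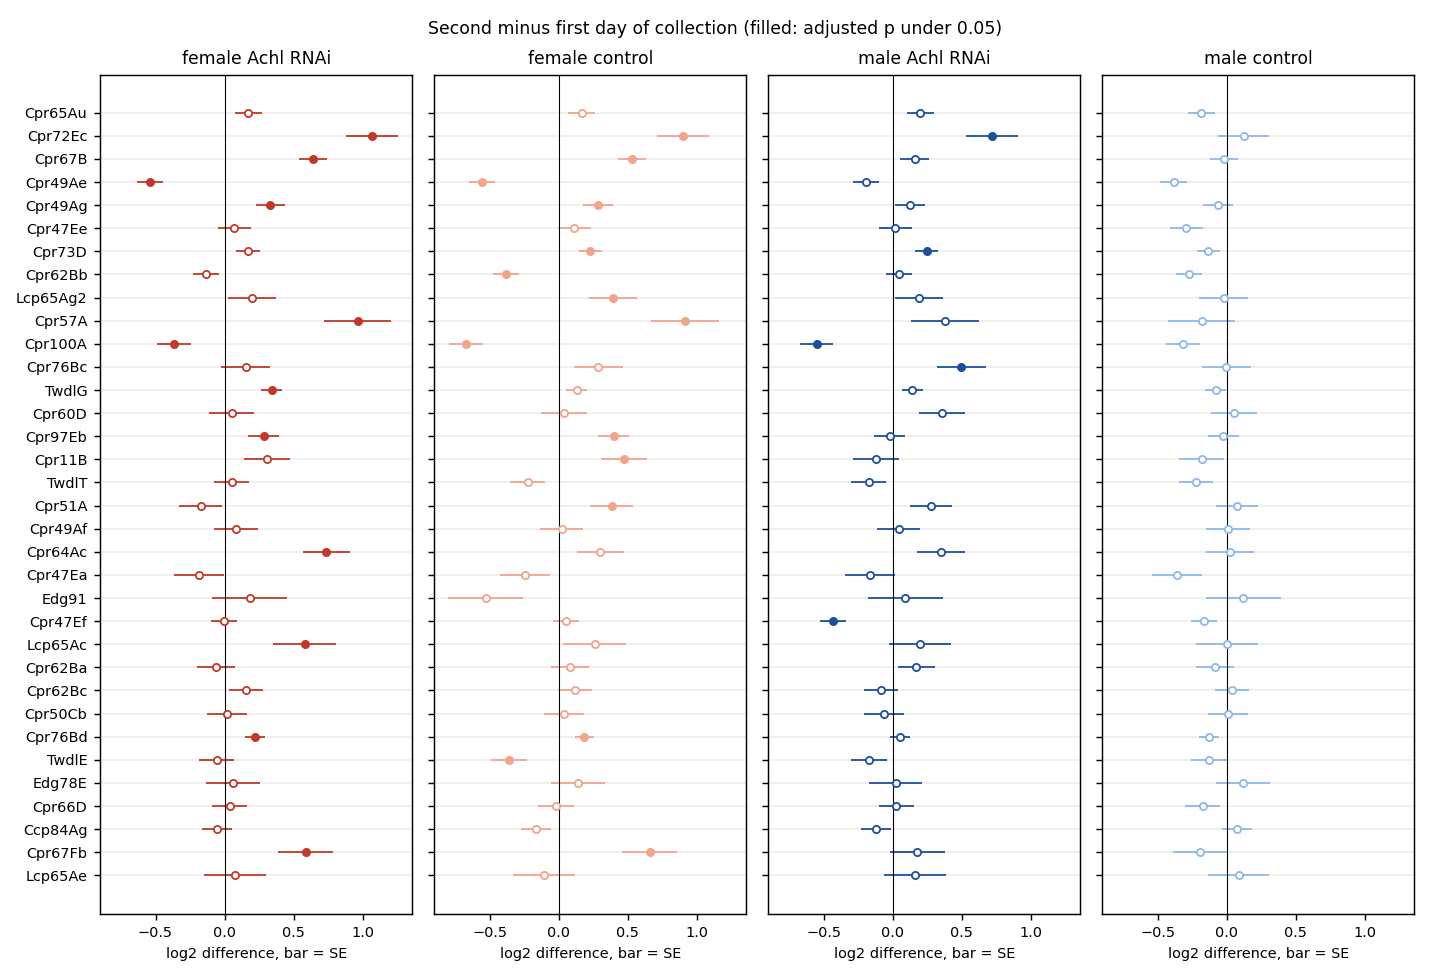
Log2 difference, second minus first day, of each gene in the 4 groups; bars are standard errors and filled points have an adjusted p under 0.05. Cpr72Ec stands at 1.07, 0.90 and 0.72 in the first 3 panels, and no point is filled in male controls.

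The lens genes can be set side by side, and no difference between them was tested. In females Crys was higher in Achl_RNAi by 0.34 and retinin lower at -0.20 on the log2 scale, while Cpr66D had 0.02 and Cpr72Ec 0.00 and neither passed. In males Cpr66D was lower at -0.20, and Cpr72Ec had a log2 change of 0.30 that did not pass. Crys was lower in females, at 1.23, 3.37 and 8.85 TPM in female controls, against 8.55, 15.5 and 25.2 TPM in male controls, a log2 difference of -1.86. Retinin was lower in female than male controls as well, at -0.36, where Cpr72Ec was higher, at 1.13, and Cpr66D had 0.19 without passing. In Achl_RNAi heads Crys had a female minus male difference of -1.58 and retinin one of -0.47, and Cpr72Ec and Cpr66D were both higher in females, by 0.83 and 0.41. Crys also had a rhythm in female controls, with a fitted peak at CT6.33 (limma adjusted p = 0.0317), later than that of Cpr72Ec; the difference in peak time was not tested.

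The genes that make, cut and tan the cuticle were counted from lists, beside which stand the shares of all tested genes given above, 55.7% lower and 4.7% higher in female Achl_RNAi and 53.5% lower and 4.61% higher in male Achl_RNAi. Of 16 genes for chitin synthesis and organisation, 12 were tested, and 0 were higher and 3 lower in female Achl_RNAi and 3 higher and 2 lower in male Achl_RNAi. Gfat1, which makes the amino sugar precursor of chitin, was lower in both sexes, at -0.27 in females and -0.31 in males. It had a rhythm in all 4 groups, with peaks at CT20.1 in female Achl_RNAi, CT20.2 in female controls, CT19.0 in male Achl_RNAi and CT20.1 in male controls. Of 17 chitinases and related imaginal disc growth factors 12 were tested, with 2 higher and 3 lower in females and 1 higher and 6 lower in males. The chitinase Cht10 was at 0.63, 1.38 and 1.89 TPM in female Achl_RNAi, against 1.45, 2.54 and 4.34 TPM in female controls, a log2 change of -0.60. In males it was at 0.47, 0.67 and 1.19 TPM in Achl_RNAi, against 2.23, 3.48 and 4.77 TPM in controls, without overlap, a change of -1.35, and the sexes differed in this by 0.74 (limma adjusted p = 3.73e-10).

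Of 26 genes for tanning and pigmentation 17 were tested, and 2 were higher and 12 lower in each sex. The yellow family gene yellow-f was at 11.4, 26.6 and 79.5 TPM in female Achl_RNAi, against 8.48, 11.7 and 16.98 TPM in female controls, and rose by 1.23 on the log2 scale. In males it was at 34.7, 64.2 and 106.8 TPM in Achl_RNAi, against 9.99, 13.4 and 18.8 TPM in controls, and rose by 2.12, without overlap. Its relative yellow-e was lower in males, at -1.23. Tyrosine hydroxylase, ple, which starts the path to the tanning catecholamines, had a rhythm in all 4 groups, with fitted peaks at CT1.06, CT2.32, CT4.14 and CT4.93 in female Achl_RNAi, female controls, male Achl_RNAi and male controls. Of 20 other structural chitin-binding genes 4 were tested, with 0 higher and 2 lower in females and 1 higher and 0 lower in males. Of 11 genes for the zona pellucida proteins of the apical matrix 6 were tested, with 0 higher and 2 lower in each sex. Of 15 core clock genes 14 were tested, with 7 lower in females, 6 lower in males and 0 higher in either.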

How the data were processed

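Messenger RNA from fly heads was sequenced with a stranded library kit from 200 ng of RNA, per the labels' protocols. Per the submitters' processing notes, STAR, RSEM and the dm6 build were used by the authors, with versions not given in the sources used here. Files as deposited hold TPM from the authors, 1 value for a gene in a library, and each library summed to 1000000 within 0.79. Gene positions come from the Ensembl annotation of BDGP6, which is dm6, and all 124 symbols matched it.

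Genes that reached 1 TPM in 24 or more libraries were tested as log2(TPM + 1) with limma 3.58.1 (trend and robust options, R 4.3.3). All 96 libraries were fitted together, each group having its own mean, cosine and sine over 24 h, and for the day comparison a second-day term per group. Level and day differences were two-sided contrasts, and rhythms were F tests on cosine and sine. P-values were adjusted by Benjamini-Hochberg over the 10568 genes tested, with a threshold of 0.05. Each group had 1 library at each time, and the labels give no replicates, so the p-values reflect only how these pooled libraries scatter about their fitted courses. The fits were tested on simulated data.

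The genes and lists were chosen with earlier results of these data known. Statistics are given for up to 6 called genes of lowest p per direction, for log2 changes over 1 and for the lens genes. Alternatives were a pseudocount of 0.1, no filter, centring each library on its median, no robust option, each day alone, a block for CT, a second-day term, day fits without cosine and sine, and the female mt:lrRNA sets. No gene passing the filter had values identical to another gene. Plotting used matplotlib 3.10.9 under Python 3.11.15.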

Additional observations from a re-analysis of the deposited data

Results flagged for a closer look

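The response to Achl knockdown differed between females and males in 8 of the 34 cuticle protein genes, by a test of the difference itself (limma, adjusted over all tested genes). Among all tested genes the difference was positive in 5.75% and negative in 8.37%. Of the 8 calls, 0 held in every alternative analysis. The log2 effect in females minus that in males was 0.70 for Lcp65Ag2, 0.64 for Cpr76Bc, 0.44 for Cpr65Au and 0.37 for Ccp84Ag. It was -0.65 for Cpr100A, -0.42 for Cpr62Ba, -0.35 for Cpr97Eb and -0.22 for Cpr76Bd. Within the high-mt female libraries the differences that still passed were those of Lcp65Ag2, Cpr65Au, Cpr100A and Cpr76Bd. On the second day alone, those of Ccp84Ag, Cpr62Ba and Cpr97Eb passed. That of Ccp84Ag rests on the male change, since the gene was almost absent from female heads and could hardly fall there. The cause of these differences was not tested.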

How the results depend on the processing

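The comparisons of level gave 121 calls of single genes. Of these, 63 kept their call in every alternative run, among them 8 of 18 for knockdown in females, 10 of 21 in males, 11 of 21 for sex in Achl_RNAi, 16 of 21 for sex in controls and 0 of 8 for the sex difference of the knockdown effect. Over the 919 alternative fits of these calls, 792 kept the call, 121 lost it with the same direction and 6 turned direction. Those 6 were Cpr100A at 0.029 for sex in controls with high-mt females, Cpr67B at -0.067 for sex in Achl_RNAi with high-mt females, Lcp65Ac at -0.041 for knockdown in high-mt females, Cpr11B at 0.053 for sex in controls on the second day, Cpr67Fb at -0.069 for sex in controls on the first day and Cpr76Bd at -0.0066 for day in female Achl_RNAi after centring.

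Totals of genes called in either direction that moved by over 1.5 times were these. Knockdown in females gave 18 genes, but 11 on the first day alone and 9 after centring. Knockdown in males gave 21, but 12 on the second day alone. The sex difference of the knockdown effect gave 8, but 4 on the first day alone and 5 with a pseudocount of 0.1. Sex in controls gave 21, but 32 with no filter, which tests 111 of the genes. The day difference gave 5 in male Achl_RNAi, but 3 after centring or without cosine and sine, and 0 in male controls, but 1 with no filter. For rhythms, female Achl_RNAi gave 1, but 0 within either mt:lrRNA set or after centring, 7 on the second day alone and 2 with a second-day term. Female controls gave 3, but 1 in low-mt libraries, on the first day alone or on the second, and 5 after centring or with a second-day term. Male Achl_RNAi gave 0, but 3 on the first day alone or with a second-day term and 1 on the second day alone. Male controls gave 0, but 1 on the first day alone, 2 after centring and 5 with a second-day term. The rhythm difference between sexes in Achl_RNAi gave 0, but 4 on the second day alone. The cause of these shifts was not tested. By direction, the 8 genes higher in females in Achl_RNAi became 2 with high-mt females and 5 on the first day alone. They became 13 with low-mt females or on the second day alone. Of all tested genes 32.7% were higher, and 17%, 23%, 42.2% and 37.9% in these settings, in that order. With no filter, the 12 of 34 genes lower in females in controls became 22 of 111, and the 13 lower in Achl_RNAi became 21 of 111. Of the 16519 genes then tested, 28.7% were lower in controls and 29.1% in Achl_RNAi, against 40.5% and 41.3% with the filter. The 19 lower with knockdown in males became 9 after centring or on the second day alone, and the 2 higher became 6 after centring. Of all tested genes 53.5% were lower, and 17.7% after centring and 25.8% on the second day alone. The share higher was 4.61%, and 14.7% after centring. A fit with CT as a replicate block gave 19 genes for knockdown in females, 23 in males, 8 for their difference and 21 for sex in either genotype, and ended no call. The libraries of a CT share only the time, since no label pairs the flies. Depth is unknown, and genes under 1 TPM rest on few reads.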

Other observations

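Among the cuticle genes below the level filter, the highest single value was that of Acp65Aa, an adult cuticle protein gene, at 5.64 TPM in the female Achl_RNAi library of CT50. Its next highest library had 1.58 TPM and its median was 0.25 TPM. Lcp65Ag3 reached 3.75 TPM and Cpr11A 1.86 TPM, both in male controls. The next highest library had 3.6 TPM for Lcp65Ag3 and 1.38 TPM for Cpr11A. Lcp65Ag3 reached 1 TPM in 22 libraries and Cpr11A in 4.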
